A study of Mus musculus with 15 samples.

Results

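Cytochromes P450 of families 2 and 3 are heme enzymes of the endoplasmic reticulum that add oxygen to drugs, toxins, steroids, bile acids and fatty acids. They take electrons from P450 reductase and, for some substrates, cytochrome b5. In the liver they are made chiefly by hepatocytes, and many are under the nuclear receptors CAR, PXR and HNF4α or under growth hormone, which gives several mouse members a male or female bias. In mouse the families have grown by gene duplication, so that many members have a near-identical neighbour. The genes described here were taken by name: symbols that read Cyp2 or Cyp3, a lower-case letter and a number, with pseudogenes and Cyp2e1 left out. This gave 56 members among 56953 genes listed: 4 of subfamily 2a, 5 of 2b, 15 of 2c, 8 of 2d, 8 of 2j, 9 of 3a and 7 others (2f, 2g, 2r, 2s, 2t, 2u and 2w).

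They were followed in 15 mRNA libraries of primary mouse hepatocytes: 4 from ΔEGFR transgenic mice given carbon tetrachloride (CCl4), 4 from ΔEGFR mice given mineral oil, 3 from wild-type (WT) mice given CCl4 and 4 from WT mice given mineral oil. CCl4 is a liver toxin that P450 enzymes, chiefly Cyp2e1, turn into a radical, and mineral oil is its carrier. EGFR is the receptor for epidermal growth factor; the series is titled for the EGFR pathway in liver fibrosis. The promoter of the transgene, the dose and length of CCl4 treatment, and the strain, age and sex of the mice are not given in the sources used here, nor is it said whether each library is a separate animal, so p-values measure only the spread between these libraries.

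Total counts ran from 51.7 M to 155.4 M per library, with 6 libraries under 80 M and none of these in the ΔEGFR mineral oil group. Summed hepatocyte markers, 11 genes such as albumin, gave the largest of the marker sums, at 61478 to 136939 CPM (counts scaled to library size) in ΔEGFR CCl4, 97679 to 178797 in ΔEGFR mineral oil, 60311 to 125233 in WT CCl4 and 89591 to 164035 in WT mineral oil. Markers of other liver cells moved with CCl4. The sum of 16 macrophage markers was 3137 to 6673 CPM in ΔEGFR CCl4 and 126 to 1645 in ΔEGFR mineral oil, and 2804 to 7529 in WT CCl4 and 204 to 2751 in WT mineral oil. The sum of 12 stellate cell markers was 292 to 894 CPM in ΔEGFR CCl4 and 46.1 to 272 in ΔEGFR mineral oil, and 231 to 655 in WT CCl4 and 42.7 to 204 in WT mineral oil. The sum of 10 cholangiocyte markers was 244 to 577 CPM in ΔEGFR CCl4 and 36.9 to 301 in ΔEGFR mineral oil, and 313 to 763 in WT CCl4 and 56.3 to 221 in WT mineral oil. No marker of these lists, or of those for endothelial cells, neutrophils, B cells and T and NK cells, was at 0 in every library. WT mineral oil replicate 1 stood apart with 2089 CPM of summed neutrophil markers, against 2.79 to 28.3 CPM in the rest of its group, and counts of calls are also given without it. The mouse Egfr gene was at 108 to 269 CPM in ΔEGFR CCl4, 492 to 1707 in ΔEGFR mineral oil, 202 to 361 in WT CCl4 and 720 to 1513 in WT mineral oil, which does not check the transgene. In such bulk RNA, fewer hepatocytes and less P450 mRNA per hepatocyte cannot be told apart.

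The duplicated pairs matter to what follows, because the partners of a pair did not always give the same result. By the longest reading frame of their GENCODE transcripts, 30 of the 56 members had a partner with at least 90% identical coding sequence. Cyp2a4 and Cyp2a5, both steroid or coumarin hydroxylases, shared 98.5% of the coding sequence, and Cyp2c67 and Cyp2c68 shared 97.2%. Reads that fit both partners were split between them by estimation, so the division among copies is uncertain. Sums over the copies are given for 5 such sets, but not for Cyp2d9, Cyp2d10 and Cyp2d12 or for Cyp3a11 and Cyp3a44. In windows set by each annotated start, the 250 bases before the start were 98.0% identical between Cyp2a4 and Cyp2a5, and 75.2% identical between Cyp2c67 and Cyp2c68. They are shown from 250 to 51 bases before the start (RefSeq, GRCm38.p6; chr7:26306942-26307141 plus strand for Cyp2a4, chr7:26835089-26835288 plus strand for Cyp2a5, chr19:39649093-39649292 minus strand for Cyp2c67 and chr19:39741152-39741351 minus strand for Cyp2c68), with capitals for the motifs CAAAGTCCA, which HNF4α binds, and GTTAAT, one arm of an HNF1 site, read on either strand:
Cyp2a4: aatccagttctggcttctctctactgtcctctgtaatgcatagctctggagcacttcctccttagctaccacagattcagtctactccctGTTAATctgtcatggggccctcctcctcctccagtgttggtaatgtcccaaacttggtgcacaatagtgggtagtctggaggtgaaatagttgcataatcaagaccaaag
Cyp2a5: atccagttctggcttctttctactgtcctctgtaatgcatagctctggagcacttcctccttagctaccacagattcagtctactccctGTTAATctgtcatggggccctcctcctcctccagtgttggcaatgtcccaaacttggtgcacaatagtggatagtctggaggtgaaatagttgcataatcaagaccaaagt
Cyp2c67: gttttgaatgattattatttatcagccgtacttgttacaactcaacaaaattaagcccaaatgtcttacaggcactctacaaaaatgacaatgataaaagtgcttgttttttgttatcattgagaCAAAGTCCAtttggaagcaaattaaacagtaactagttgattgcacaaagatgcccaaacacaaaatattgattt
Cyp2c68: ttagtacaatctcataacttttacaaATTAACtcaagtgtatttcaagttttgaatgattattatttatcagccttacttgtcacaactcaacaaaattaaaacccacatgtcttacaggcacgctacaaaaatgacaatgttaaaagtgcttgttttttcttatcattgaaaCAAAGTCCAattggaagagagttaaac

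The Cyp2a pair shares its GTTAAT and has no CAAAGTCCA in this window. Cyp2c67 and Cyp2c68 share a CAAAGTCCA, which lies 125 bases before the start in Cyp2c67 and 77 in Cyp2c68. Their windows are thus offset against each other, which lowers the identity between them. The HNF1 arm shows in the Cyp2c68 window alone, as ATTAAC on the printed strand. It lies 224 bases before the start, upstream of the stretch that the Cyp2c67 window covers. The matching Cyp2c67 bases were not read, so a difference between the copies there was not tested. Over the 250 bases before the start, read on both strands, CAAAGTCCA was in 10 of the 48 members with an entry (20.8%), against 0.5% of 27025 genes. GTTAAT was in 12.5% of these members and in 7.5% of all genes, and AGGTCA, one arm of nuclear receptor sites, was in 31.2% and 15.8%. TATAAA, the letters of a TATA box, was in 45.8% and 14.3%, and TTGCGCAA, a C/EBP site, was in 0 members and in 0.2% of all genes. TATAAA was counted at any position and on either strand, so this is not a share of TATA boxes. In Cyp3a11, for example, it lay 234 bases before the start. Each motif was counted on its own, whether or not it overlapped another. Several of the members that hold a motif are copies of one another, so these shares are descriptions of the letters and not of binding.

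Most of the P450 mRNA came from a few genes. Values in TPM, transcript shares corrected for gene length, allow levels of different genes to be set side by side. Over the 15 libraries, 15 members averaged more than 100 TPM and 23 averaged less than 1 TPM. The most abundant were Cyp2c29, a phenobarbital-inducible epoxygenase of fatty acids, at 1203 TPM, Cyp3a11, the main mouse counterpart of human CYP3A4, at 966 TPM, and Cyp2d9, the male-biased testosterone 16α-hydroxylase, at 912 TPM. Cyp2f2, a naphthalene oxidase of lung club cells and periportal hepatocytes, followed at 726 TPM and Cyp2d26 at 545 TPM. By subfamily, 2c held 33.8% ± 8.5 of the summed TPM in ΔEGFR CCl4, 32.0% ± 4.3 in ΔEGFR mineral oil, 33.5% ± 10.3 in WT CCl4 and 34.7% ± 10.3 in WT mineral oil (SD, n = 4, 4, 3 and 4), and 2d held a similar share, with group means of 27.3% to 32.2%. Shares of 2a, 2c and 2d differed by less than their SD between CCl4 and mineral oil in either genotype. The 2b share was higher with CCl4, at 1.51% ± 0.51 in ΔEGFR CCl4 and 0.323% ± 0.121 in ΔEGFR mineral oil, and at 1.37% ± 0.47 in WT CCl4 and 0.470% ± 0.186 in WT mineral oil, with no overlap between libraries in either genotype.

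In all, 40 members had enough counts to be tested: 4 of 2a, 2 of 2b, 13 of 2c, 7 of 2d, 3 of 2j, 6 of 3a and 5 others. The other 16 reached at most 0.11 TPM in any library and 6 of them had no count at all.

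**Figure D1:**
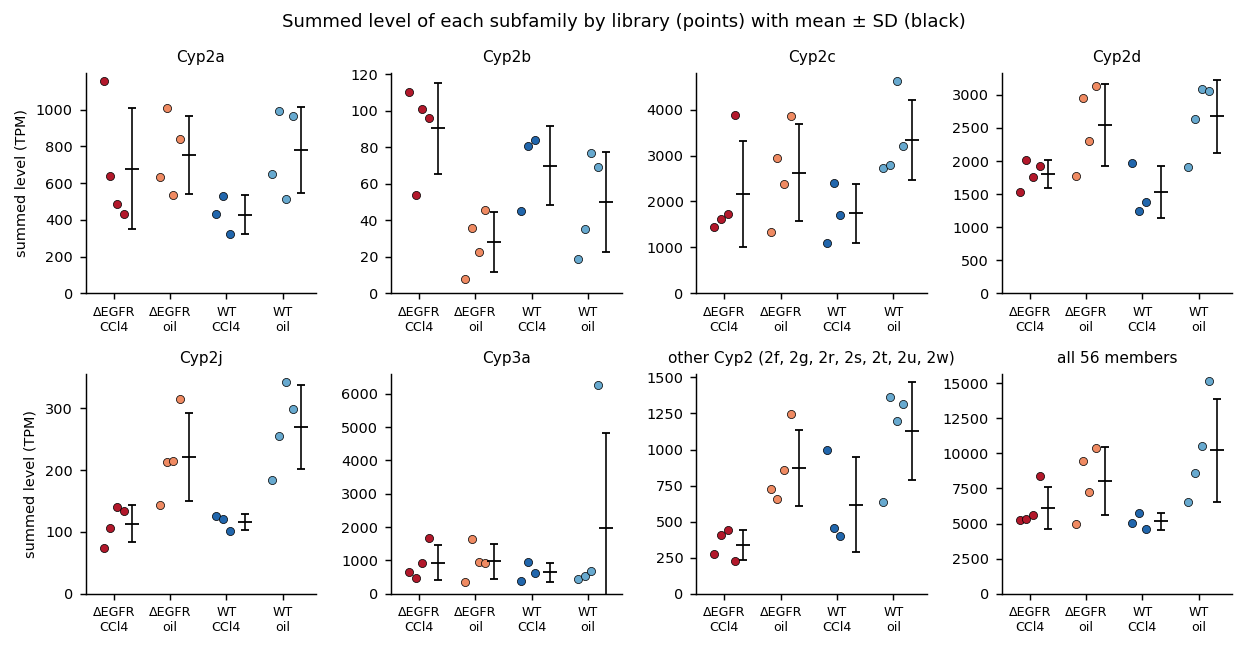
Summed TPM of each subfamily in each library (points, groups from left to right ΔEGFR CCl4, ΔEGFR mineral oil, WT CCl4, WT mineral oil) with the group mean ± SD in black (n = 4, 4, 3 and 4; bars are cut at 0). The 2j points of both CCl4 groups lie below those of their mineral oil groups, and a single WT mineral oil library stands at 6248 TPM in 3a.

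With CCl4 the summed P450 message was lower in WT hepatocytes. All 56 members together had 5051, 5785 and 4608 TPM in WT CCl4, against 6568, 8621, 10525 and 15162 TPM in WT mineral oil, with no overlap. In ΔEGFR the sums were 5265, 5298, 5574 and 8375 TPM with CCl4, against 4984, 9452, 7261 and 10368 TPM with mineral oil, which overlap. Subfamily 2j had 74.5, 106, 140 and 134 TPM in ΔEGFR CCl4 against 143, 214, 215 and 316 TPM in ΔEGFR mineral oil, and 126, 121 and 102 TPM in WT CCl4 against 184, 255, 343 and 299 TPM in WT mineral oil. It was the only subfamily whose libraries did not overlap in both genotypes on this scale. The size of such sums depends on the scaling of the libraries. As CPM with TMM factors, the mean of all members was 6192 in ΔEGFR CCl4 and 11328 in ΔEGFR mineral oil, a ratio of 0.547, where TPM gives 0.764. In WT it was 5028 CPM with CCl4 and 14335 CPM with mineral oil, a ratio of 0.351, where TPM gives 0.504.

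Each member was then compared between CCl4 and mineral oil within its genotype. The test was edgeR's quasi-likelihood test on the whole table of 17975 genes, with Benjamini-Hochberg adjustment over all of them and a threshold of 0.05. In ΔEGFR hepatocytes 1 member rose and 13 fell of the 40 tested, where 1.77% of all genes tested rose and 2.38% fell (4.15% in either direction). In WT hepatocytes 2 members rose and 16 fell, where 5.31% of all genes rose and 7.2% fell (12.5% in either direction). The median log2 fold change of the 40 was −1.02 in ΔEGFR and −1.34 in WT, against −0.02 and −0.03 over all genes. In CPM with TMM factors, every CCl4 library lay below every mineral oil library for 17 members in ΔEGFR (9.32% of all genes) and for 20 in WT (11.9% of all genes). In the other direction this was so for 3 members in ΔEGFR (12.3% of all genes) and for 1 in WT (12.1%). Several members that lay wholly below their controls overlapped them in TPM. Among them were Cyp2d9, Cyp2d10, Cyp2c54, Cyp2c67, Cyp2c70, Cyp2j6 and Cyp2u1 in ΔEGFR, and Cyp2c29, Cyp2d10 and Cyp3a13 in WT. Without TMM factors the median over all genes became 0.44 in ΔEGFR and 0.40 in WT, and 997 genes rose and 183 fell in ΔEGFR, and 2326 rose and 515 fell in WT, against 319 and 427 in ΔEGFR and 955 and 1295 in WT with the factors. The members' median was then −0.55 in ΔEGFR and −0.91 in WT, and 8 members fell and 1 rose in ΔEGFR, and 14 fell and 2 rose in WT.

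Of the members that fell, 12 did so in both genotypes: Cyp2c23, Cyp2c54 and Cyp2c67 of 2c, Cyp2d9, Cyp2d10, Cyp2d12 and Cyp2d22 of 2d, Cyp2j5, Cyp3a13, Cyp3a25, Cyp2g1 and Cyp2u1. Cyp2f2 passed the test in ΔEGFR alone, and Cyp2c37, Cyp2c50, Cyp2d40 and Cyp2j6 in WT alone, but the difference between the genotypes was not significant for any of the 5 (interaction term, adjusted p = 1.0). By subfamily, those that fell were 3 of 13 tested in 2c, 4 of 7 in 2d, 1 of 3 in 2j, 2 of 6 in 3a and 3 of 5 others in ΔEGFR, and 5, 5, 2, 2 and 2 of the same in WT. No member of 2a or 2b fell.

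These calls were sensitive to single libraries, as were those over all genes. With 1 library left out, the count of members that fell ranged from 1 to 16 in ΔEGFR and from 5 to 19 in WT. Over all genes it ranged from 41 to 1153 in ΔEGFR and from 259 to 2528 in WT, against 427 and 1295 in the full fit. In ΔEGFR 1 member fell without CCl4 replicate 1 (46 of all genes), CCl4 replicate 2 (41) or mineral oil replicate 4 (55). There 2 fell without CCl4 replicate 3 (72), 3 without mineral oil replicate 2 (118) and 5 without mineral oil replicate 1 (182). The WT count dropped to 5 when replicate 3 of the CCl4 group was left out (259 of all genes) and to 10 when replicate 2 was (406). With WT mineral oil replicate 1 left out, 16 members fell in ΔEGFR and 19 in WT, where 1153 and 2528 of 17798 genes fell. The libraries were also split by depth, a choice made after seeing it. Among the libraries over 80 M counts, 2 members (50 of 17248 genes over the whole table) fell in ΔEGFR. Among those under 80 M none did in WT, where 2 CCl4 libraries were set against 3 mineral oil libraries and no gene of the whole table was called in the same edgeR test (4971 at an unadjusted p under 0.05). Of the members that fell, Cyp2d12 alone was called in all 15 left-out fits in ΔEGFR, where the others were called in 4 to 11. In WT Cyp2c54, Cyp2c67, Cyp2d9, Cyp2d12 and Cyp2g1 were called in all 15, and the others in 6 to 14. In each of these fits, every one of the 16 WT genes and 13 ΔEGFR genes that could be fitted kept a negative log2 fold change. These genes were picked for their fall in the full fit, and the refits reuse its libraries, so the kept sign is no separate evidence.

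**Figure D2:**
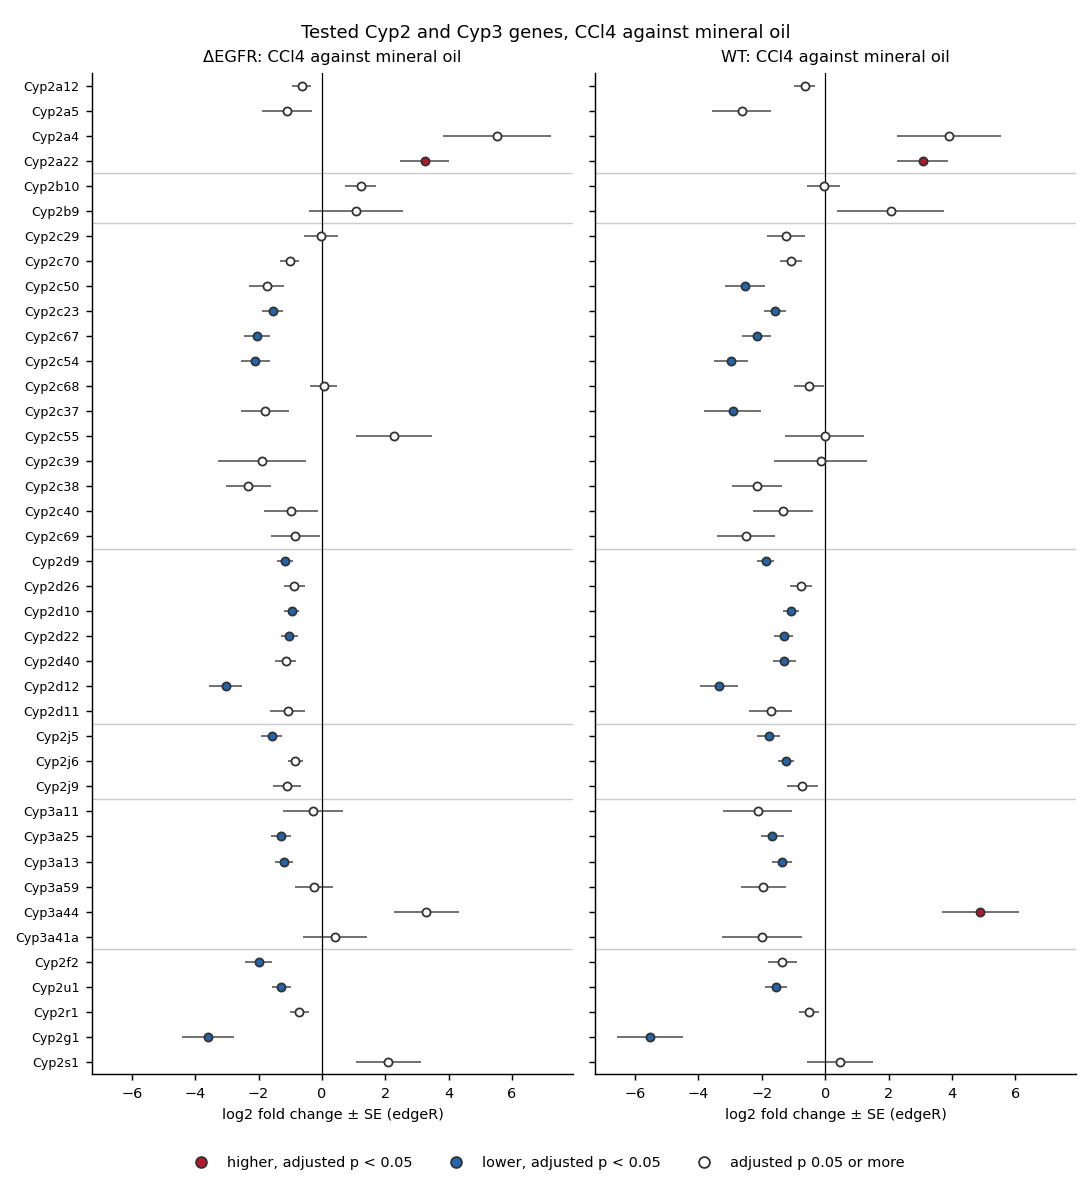
Log2 fold change ± SE (edgeR) of the 40 tested members, CCl4 against mineral oil, in ΔEGFR (left) and WT (right); grey lines part the subfamilies 2a, 2b, 2c, 2d, 2j, 3a and other, and within each the most abundant member is on top. Blue points fell and red points rose at an adjusted p under 0.05: 13 and 1 in ΔEGFR, and 16 and 2 in WT.

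The 2d subfamily, mouse relatives of human CYP2D6, held 4 members that fell in ΔEGFR and 5 that fell in WT. All 7 tested members had a negative log2 fold change in both genotypes. Cyp2d9 had 462, 609, 754 and 746 CPM in ΔEGFR CCl4, against 1436, 1517, 1006 and 1822 CPM in ΔEGFR mineral oil. It had 533, 300 and 396 CPM in WT CCl4, against 1082, 1578, 1735 and 1620 CPM in WT mineral oil. In CPM the treated libraries were all below their controls, 2.25-fold on average in ΔEGFR (log2 fold change −1.17 ± 0.25 SE, adjusted p = 0.0298) and 3.67-fold in WT (−1.88 ± 0.28, adjusted p = 0.00382). In TPM the ΔEGFR groups of Cyp2d9 overlapped, with 828 in the highest CCl4 library and 799 in the lowest control. Cyp2d10, an abundant member with 370, 337, 350 and 395 CPM in ΔEGFR CCl4, had 699, 702, 536 and 885 CPM in ΔEGFR mineral oil. In WT CCl4 it had 435, 304 and 245 CPM, against 450, 763, 833 and 711 CPM in WT mineral oil. It fell in both genotypes, with log2 fold changes of −0.96 ± 0.23 (adjusted p = 0.0388) in ΔEGFR and −1.07 ± 0.25 (adjusted p = 0.0175) in WT.

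Cyp2d26 had 294, 381, 359 and 620 CPM in ΔEGFR CCl4, against 708, 721, 539 and 1051 CPM in ΔEGFR mineral oil. In WT CCl4 it had 706, 410 and 272 CPM, against 502, 882, 960 and 788 CPM in WT mineral oil. The groups overlapped and it did not pass the test in ΔEGFR (−0.87 ± 0.33, adjusted p = 0.133) or in WT (−0.76 ± 0.36, adjusted p = 0.183). Cyp2d12, a copy of Cyp2d9 that is 92.1% identical in coding sequence, was scarce, with 0.0824, 0.252, 0.168 and 0.0719 CPM in ΔEGFR CCl4, against 2.05, 1.05, 0.991 and 0.652 CPM in ΔEGFR mineral oil. WT hepatocytes had 0.130, 0.0922 and 0.0431 CPM of it with CCl4, against 0.647, 0.919, 1.08 and 0.867 CPM with mineral oil. Its fitted fall exceeded that of the other 2d members, at −3.04 ± 0.52 (adjusted p = 0.0132) in ΔEGFR and −3.36 ± 0.60 (adjusted p = 0.00638) in WT, on 6.09 to 31.7 expected counts per CCl4 library. Cyp2d22 fell in both genotypes (−1.03 in ΔEGFR, −1.31 in WT) and Cyp2d40 in WT (−1.29 ± 0.37, adjusted p = 0.0381), with −1.14 ± 0.33 in ΔEGFR (adjusted p = 0.0692).

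In 2c, the genes Cyp2c37, Cyp2c50 and Cyp2c54 form a close group, with 95.1% to 96.1% identical coding sequence. Cyp2c54 had 35.1, 31.0, 31.6 and 71.0 CPM in ΔEGFR CCl4, against 93.3, 141, 123 and 369 CPM in ΔEGFR mineral oil. In WT CCl4 it had 30.4, 37.3 and 20.2 CPM, against 234, 213, 350 and 129 CPM in WT mineral oil. In CPM no treated library reached a control, and the gene fell 4.30-fold in ΔEGFR (−2.11 ± 0.46, adjusted p = 0.0312) and 7.90-fold in WT (−2.98 ± 0.53, adjusted p = 0.00638). In TPM its ΔEGFR groups overlapped, with 64.0 in the highest CCl4 library and 48.3 in the lowest control. Cyp2c50 had 101, 105, 78.3 and 391 CPM in ΔEGFR CCl4, against 312, 459, 412 and 1076 CPM in ΔEGFR mineral oil. It had 117, 129 and 46.4 CPM in WT CCl4, against 503, 753, 584 and 416 CPM in WT mineral oil. It fell in WT (−2.53 ± 0.63, adjusted p = 0.0226), whereas in ΔEGFR replicate 4 of the CCl4 group overlapped the controls (−1.74 ± 0.55, adjusted p = 0.0857).

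Cyp2c37 had 25.0, 21.9, 19.8 and 64.6 CPM in ΔEGFR CCl4, against 32.7, 65.7, 38.5 and 324 CPM in ΔEGFR mineral oil. In WT it had 10.2, 27.5 and 13.1 CPM with CCl4, against 128, 234, 110 and 38.5 CPM with mineral oil. The WT fall was close to the threshold (−2.92 ± 0.89, adjusted p = 0.0481) and the ΔEGFR value did not pass (−1.81 ± 0.76, adjusted p = 0.164). Since reads can be split wrongly within the group, the sum of the 3 genes is the safer measure: 244 CPM in ΔEGFR CCl4 and 862 in ΔEGFR mineral oil on average, a ratio of 0.283, and 144 CPM in WT CCl4 and 923 in WT mineral oil, a ratio of 0.156. The summed libraries overlapped in ΔEGFR and not in WT.

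Cyp2c67 was another member that fell in both genotypes. It had 49.6, 37.8, 107 and 92.4 CPM in ΔEGFR CCl4, against 204, 425, 208 and 349 CPM in ΔEGFR mineral oil. In WT CCl4 it had 28.2, 77.3 and 72.5 CPM, against 268, 179, 343 and 267 CPM in WT mineral oil. All treated libraries were lower in CPM (−2.05 ± 0.41, adjusted p = 0.0229 in ΔEGFR, and −2.16 ± 0.46, adjusted p = 0.012 in WT). In TPM the highest ΔEGFR CCl4 library of Cyp2c67 (111) passed the lowest ΔEGFR control (109). Its copy Cyp2c68 did not follow, with log2 fold changes of 0.05 ± 0.43 in ΔEGFR (adjusted p = 0.952) and −0.50 ± 0.47 in WT (adjusted p = 0.518), where the groups overlapped. Summed with Cyp2c40 and Cyp2c69, the 4 copies averaged 170 CPM in ΔEGFR CCl4 and 392 in ΔEGFR mineral oil, and 110 CPM in WT CCl4 and 338 in WT mineral oil, with no overlap in either genotype, although in TPM the ΔEGFR libraries overlapped. Cyp2c23, an arachidonic acid epoxygenase with no copy over 90% identical, fell in both genotypes (−1.56 ± 0.32, adjusted p = 0.025 in ΔEGFR; −1.58 ± 0.35, adjusted p = 0.0147 in WT).

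The most abundant member of all, Cyp2c29, did not pass the test. It had 636, 661, 815 and 2977 CPM in ΔEGFR CCl4, against 853, 1241, 838 and 2266 CPM in ΔEGFR mineral oil. It had 447, 1482 and 810 CPM in WT CCl4, against 1672, 1783, 3356 and 1798 CPM in WT mineral oil. The WT groups did not overlap in CPM, although they did in TPM. The spread was wide (−1.24 ± 0.61, adjusted p = 0.2), and in ΔEGFR the log2 fold change was −0.03 ± 0.55 (adjusted p = 0.978). Cyp2c70, which makes the muricholic bile acids of mice, had 218, 233, 413 and 309 CPM in ΔEGFR CCl4, against 641, 554, 585 and 602 CPM in ΔEGFR mineral oil. In WT CCl4 it had 278, 334 and 276 CPM, against 290, 537, 1054 and 599 CPM in WT mineral oil. In CPM it was lower in every ΔEGFR CCl4 library than in any control, which did not hold in TPM. It missed the threshold in both genotypes (−1.02 ± 0.31, adjusted p = 0.0794 in ΔEGFR, and −1.07 ± 0.35, adjusted p = 0.0601 in WT).

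**Figure D3:**
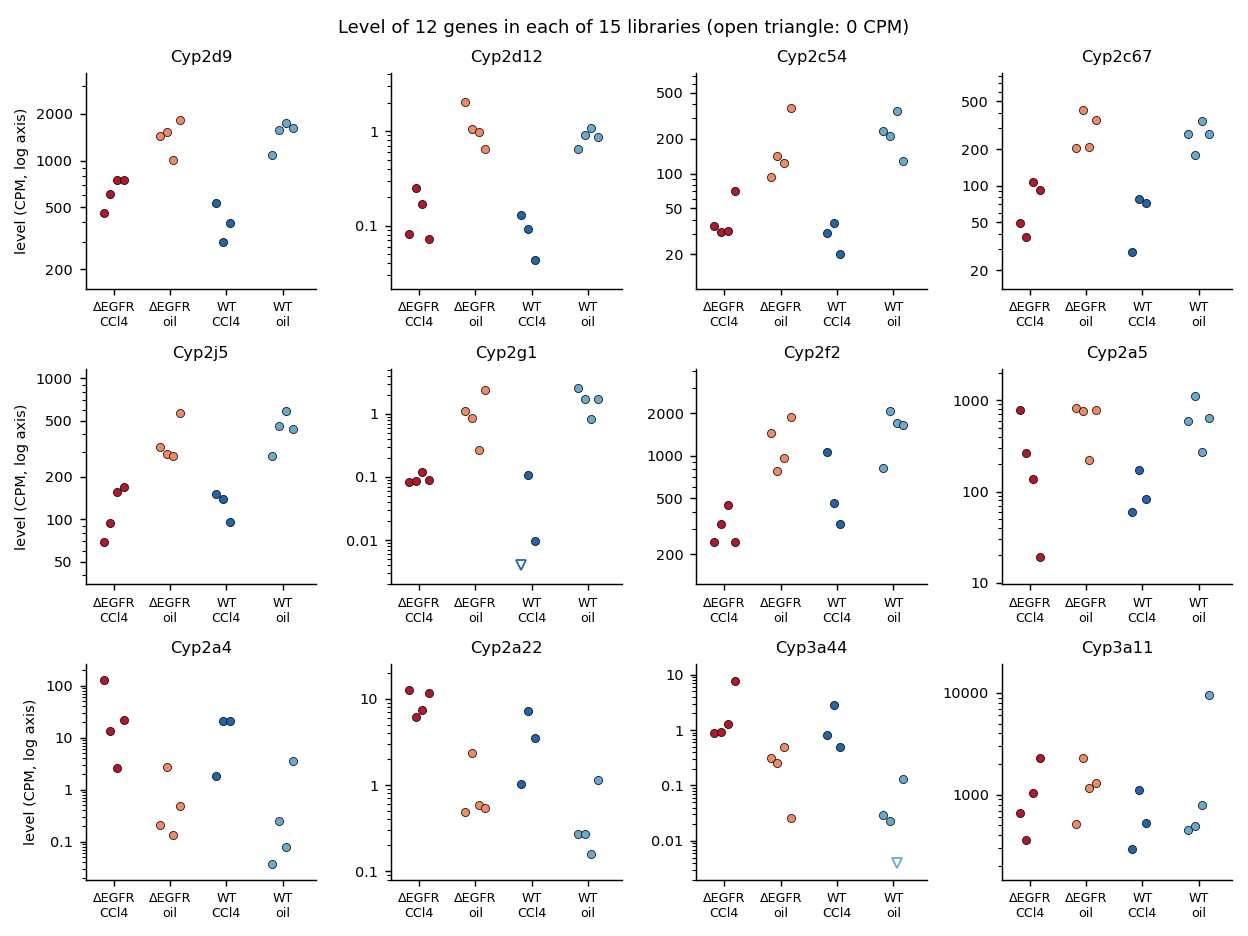
Level of 12 members in each library (CPM with TMM factors, log axis; groups from left to right ΔEGFR CCl4, ΔEGFR mineral oil, WT CCl4, WT mineral oil; open triangles are libraries at 0 CPM). The CCl4 points lie below the mineral oil points in both genotypes for Cyp2d9, Cyp2d12, Cyp2c54, Cyp2c67, Cyp2j5 and Cyp2g1, above them for Cyp3a44, and Cyp3a11 has 1 WT mineral oil library at 9536 CPM.

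The 2a subfamily held the gene that rose in both genotypes. Cyp2a22, a copy of Cyp2a12 with 97.0% identical coding sequence, had 12.6, 6.14, 7.40 and 11.6 CPM in ΔEGFR CCl4, against 0.482, 2.36, 0.589 and 0.548 CPM in ΔEGFR mineral oil. It had 1.04, 7.17 and 3.48 CPM in WT CCl4, against 0.268, 0.269, 0.160 and 1.15 CPM in WT mineral oil. The rise was 9.46-fold in ΔEGFR (3.24 ± 0.77, adjusted p = 0.0395), with no overlap, and 8.46-fold in WT (3.08 ± 0.80, adjusted p = 0.0268), where the groups overlapped by 1 library each. The ΔEGFR call was lost when any ΔEGFR library other than mineral oil replicate 2 was left out (adjusted p = 0.054 to 0.12). The WT call was lost without replicate 2 or 3 of either WT group (adjusted p = 0.0684 to 0.101). Cyp2a12, a bile acid 7α-hydroxylase, was far more abundant, at 210, 249, 346 and 408 CPM in ΔEGFR CCl4, against 485, 504, 374 and 526 CPM in ΔEGFR mineral oil. With CCl4, WT libraries had 374, 340 and 155 CPM, against 294, 478, 456 and 587 CPM in WT mineral oil. It did not pass the test (−0.64 ± 0.30, adjusted p = 0.201 in ΔEGFR; −0.65 ± 0.32, adjusted p = 0.203 in WT), and the sum of both copies averaged 313 CPM in ΔEGFR CCl4 and 473 in ΔEGFR mineral oil, and 293 in WT CCl4 and 454 in WT mineral oil, so the level of Cyp2a22 was small beside that of its copy.

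The other pair of the subfamily is the one printed above. Cyp2a5, the coumarin 7-hydroxylase and mouse counterpart of human CYP2A6, had 776, 265, 138 and 19.4 CPM in ΔEGFR CCl4, against 817, 756, 223 and 778 CPM in ΔEGFR mineral oil. The WT CCl4 libraries had 59.7, 173 and 82.1 CPM, against 596, 1106, 270 and 644 CPM in WT mineral oil. Treated WT libraries were all lower than their controls (−2.64 ± 0.94, adjusted p = 0.0837), but the change passed in neither genotype (ΔEGFR −1.10 ± 0.80, adjusted p = 0.41). Cyp2a4, the female-biased testosterone 15α-hydroxylase, had 129, 13.3, 2.67 and 22.2 CPM in ΔEGFR CCl4, against 0.205, 2.75, 0.132 and 0.496 CPM in ΔEGFR mineral oil. It had 1.80, 21.3 and 21.2 CPM in WT CCl4, against 0.0372, 0.247, 0.0798 and 3.62 CPM in WT mineral oil. Its log2 fold changes had the opposite sign to those of Cyp2a5 and wide errors, 5.53 ± 1.71 in ΔEGFR (adjusted p = 0.0801) and 3.91 ± 1.64 in WT (adjusted p = 0.134). The sum of the pair followed Cyp2a5, with 341 CPM on average in ΔEGFR CCl4 and 644 in ΔEGFR mineral oil, and 120 CPM in WT CCl4 and 655 in WT mineral oil. On this scale the summed libraries overlapped in ΔEGFR and not in WT, and in TPM they overlapped in both.

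In 3a, 2 members of middling level fell, a scarce one rose in WT, and the most abundant one varied widely between libraries. Cyp3a25, a steroid 6β-hydroxylase of liver and gut, had 57.7, 69.6, 97.5 and 108 CPM in ΔEGFR CCl4, against 201, 173, 136 and 306 CPM in ΔEGFR mineral oil. It had 121, 87.5 and 67.3 CPM in WT CCl4, against 186, 278, 265 and 444 CPM in WT mineral oil. All treated libraries were below all controls (−1.30 ± 0.32, adjusted p = 0.0411 in ΔEGFR; −1.67 ± 0.36, adjusted p = 0.0121 in WT). Its copy Cyp3a59, 97.5% identical in coding sequence, did not pass the test (−0.25 ± 0.61, adjusted p = 0.83 in ΔEGFR; −1.95 ± 0.70, adjusted p = 0.0844 in WT). The sum of both averaged 92.4 CPM in ΔEGFR CCl4 and 215 in ΔEGFR mineral oil, and 98.6 CPM in WT CCl4 and 319 in WT mineral oil. These sums did not overlap in either genotype, although in TPM the ΔEGFR libraries overlapped. Cyp3a13, also of liver and gut, had 72.8, 66.6, 65.3 and 66.8 CPM in ΔEGFR CCl4, against 181, 151, 102 and 187 CPM in ΔEGFR mineral oil. With CCl4, WT libraries had 91.7, 64.3 and 51.9 CPM, against 93.6, 265, 185 and 171 CPM in WT mineral oil. In CPM it was the steadiest of these genes among treated ΔEGFR libraries, with a 1.11-fold range. In TPM its range there was 1.38-fold, wider than that of Cyp2d10 (1.21-fold). Cyp3a13 fell in both genotypes (−1.19 ± 0.28, adjusted p = 0.0386 in ΔEGFR, and −1.36 ± 0.31, adjusted p = 0.0161 in WT).

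Cyp3a11 had 664, 361, 1038 and 2277 CPM in ΔEGFR CCl4, against 512, 2281, 1162 and 1299 CPM in ΔEGFR mineral oil. The WT CCl4 libraries had 294, 1107 and 532 CPM, against 452, 492, 800 and 9536 CPM in WT mineral oil. WT mineral oil replicate 4 alone set the control mean, and neither genotype passed the test (−0.28 ± 0.94, adjusted p = 0.88 in ΔEGFR; −2.13 ± 1.09, adjusted p = 0.215 in WT). Without that library the WT log2 fold change was 0.12. Cyp3a44, a female-biased member that is 94.9% identical to Cyp3a11 in coding sequence, had 0.894, 0.931, 1.26 and 7.65 CPM in ΔEGFR CCl4, against 0.318, 0.251, 0.492 and 0.0261 CPM in ΔEGFR mineral oil. It had 0.797, 2.87 and 0.503 CPM in WT CCl4, against 0.0297, 0.0224, 0 and 0.132 CPM in WT mineral oil, where the control libraries held 4.01, 1.0, 0 and 7.25 expected counts. All treated libraries were above their controls in both genotypes, and the rise passed the test in WT (4.90 ± 1.21, adjusted p = 0.0218) and not in ΔEGFR (3.29 ± 1.03, adjusted p = 0.0849). The rise in WT was not called when replicate 2 of the CCl4 group, or replicate 2 or 3 of the mineral oil group, was left out.

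In 2j, Cyp2j5, an arachidonic acid epoxygenase of liver and kidney, had 69.3, 94.5, 156 and 168 CPM in ΔEGFR CCl4, against 326, 292, 281 and 565 CPM in ΔEGFR mineral oil. It had 150, 139 and 94.9 CPM in WT CCl4, against 282, 459, 584 and 439 CPM in WT mineral oil. The fall was 3.0-fold in ΔEGFR (−1.59 ± 0.33, adjusted p = 0.0256) and 3.44-fold in WT (−1.78 ± 0.37, adjusted p = 0.0111), with no overlap in either. Cyp2j6 had 29.9, 29.5, 46.2 and 48.4 CPM in ΔEGFR CCl4, against 62.8, 75.9, 54.5 and 81.6 CPM in ΔEGFR mineral oil. WT hepatocytes had 31.5, 35.0 and 21.4 CPM with CCl4, against 47.0, 69, 80.5 and 80.1 CPM with mineral oil. It fell in WT (−1.24 ± 0.26, adjusted p = 0.0115) and missed the threshold in ΔEGFR (−0.84 ± 0.23, adjusted p = 0.0596). No libraries overlapped in ΔEGFR either in CPM, but in TPM they did.

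Cyp2j9, known chiefly from brain, was low. It had 1.76, 1.14, 2.52 and 0.847 CPM in ΔEGFR CCl4, against 3.29, 2.01, 2.31 and 5.75 CPM in ΔEGFR mineral oil. With CCl4, WT libraries had 3.86, 1.37 and 1.69 CPM, against 4.62, 3.48, 4.39 and 2.66 CPM in WT mineral oil. These groups overlapped and it did not pass the test (adjusted p = 0.154 in ΔEGFR and 0.353 in WT). The 2b subfamily was led by Cyp2b10, the textbook target of CAR, with 105, 45.7, 107 and 111 CPM in ΔEGFR CCl4, against 16.6, 45.6, 26.9 and 69.7 CPM in ΔEGFR mineral oil. The WT CCl4 libraries had 49.9, 86.3 and 71.9 CPM, against 25.8, 55.4, 114 and 90.7 CPM in WT mineral oil. It did not pass the test in ΔEGFR (1.22 ± 0.49, adjusted p = 0.15) or in WT, where the log2 fold change of −0.04 ± 0.52 changed sign with the scaling (adjusted p = 0.965). In TPM, the 2b sum of every ΔEGFR CCl4 library was above every ΔEGFR mineral oil library, at 110, 54, 101 and 96.0 against 7.95, 35.8, 22.7 and 45.7 TPM, while as CPM with TMM factors the groups overlapped. The female-biased Cyp2b9 had 1.16, 0.387, 0.101 and 2.60 CPM in ΔEGFR CCl4, against 0, 0.162, 0.0554 and 1.84 CPM in ΔEGFR mineral oil. It had 0, 0.753 and 0.426 CPM in WT CCl4, against 0.0372, 0.0224, 0.0200 and 0.302 CPM in WT mineral oil. All these groups overlapped and it did not pass the test (adjusted p = 0.686 in ΔEGFR and 0.45 in WT). Cyp2b13, also female-biased, was at 0 in 9 libraries, reached at most 0.09 TPM and was not tested.

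Among the other members, Cyp2f2 had 245, 325, 446 and 245 CPM in ΔEGFR CCl4, against 1444, 784, 955 and 1866 CPM in ΔEGFR mineral oil. It had 1054, 458 and 326 CPM in WT CCl4, against 820, 2068, 1698 and 1658 CPM in WT mineral oil. In ΔEGFR all treated libraries were lower and the fall was 4.01-fold (−2.0 ± 0.42, adjusted p = 0.0256), and in WT the groups overlapped (−1.35 ± 0.45, adjusted p = 0.0669). Cyp2u1, a long-chain fatty acid hydroxylase, had 17.5, 14.2, 11.4 and 10.1 CPM in ΔEGFR CCl4, against 25.3, 31.1, 25.0 and 47.7 CPM in ΔEGFR mineral oil. With CCl4, WT libraries had 18.8, 7.19 and 11.8 CPM, against 26.6, 43.3, 46.6 and 31.7 CPM in WT mineral oil. It fell in both (−1.28 ± 0.31, adjusted p = 0.0406 in ΔEGFR; −1.55 ± 0.35, adjusted p = 0.0143 in WT).

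Cyp2r1, the vitamin D 25-hydroxylase, had 4.70, 5.0, 8.51 and 12.4 CPM in ΔEGFR CCl4, against 10.9, 11.8, 13.5 and 13.9 CPM in ΔEGFR mineral oil. The WT CCl4 libraries had 8.55, 9.49 and 5.83 CPM, against 7.63, 14.0, 11.7 and 11.8 CPM in WT mineral oil. Both comparisons overlapped and neither passed (adjusted p = 0.16 in ΔEGFR and 0.322 in WT). Cyp2g1, known mainly from the olfactory mucosa, had 0.0824, 0.0868, 0.118 and 0.0879 CPM in ΔEGFR CCl4, against 1.10, 0.857, 0.263 and 2.35 CPM in ΔEGFR mineral oil. It had 0, 0.108 and 0.00957 CPM in WT CCl4, against 2.59, 1.73, 0.818 and 1.70 CPM in WT mineral oil. The fitted fall exceeded that of any other tested member in both genotypes (−3.60 ± 0.81, adjusted p = 0.0338 in ΔEGFR; −5.53 ± 1.04, adjusted p = 0.00744 in WT), where the size depends on how the fit treats low counts, with only 0, 7 and 2 expected counts in the WT CCl4 libraries.

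Groups of members that share a regulator or a bias, listed with earlier results known, cut across the subfamilies. Of 9 members inducible through CAR or PXR none rose, 2 fell in ΔEGFR and 4 in WT, with a median log2 fold change of −1.10 and −2.13. In ΔEGFR 7 of the 9 had a negative log2 fold change and 2 a positive one that did not pass the test. These were Cyp2b10 (1.22 ± 0.49, adjusted p = 0.15) and Cyp2c55 (2.27 ± 1.21, adjusted p = 0.26). In WT all 9 were negative. Of 10 female-biased members 7 were tested; none fell in either genotype, none rose in ΔEGFR and Cyp3a44 alone rose in WT (median 0.41 in ΔEGFR and −0.14 in WT). The male-biased Cyp2d9 fell in both. Of 9 members listed for their expression in other tissues 4 were tested, and of these Cyp2f2 and Cyp2g1 fell in ΔEGFR and Cyp2g1 in WT. Cyp2f2 is also a hepatocyte gene and was abundant in these libraries. Over all genes tested 1.77% rose and 2.38% fell in ΔEGFR, and 5.31% rose and 7.2% fell in WT.

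The genes that supply and regulate these enzymes were read from the same fit. Of 17 genes for electron donors, P450 partners and heme metabolism, Blvra rose and Pgrmc1 fell in ΔEGFR, and Blvra rose and Pgrmc1, Cyb5a and Fech fell in WT; the median was −0.34 in ΔEGFR and −0.36 in WT. Pgrmc1, a heme-binding P450 partner, had 606, 472, 572 and 607 CPM in ΔEGFR CCl4, against 1015, 1200, 897 and 1266 CPM in ΔEGFR mineral oil. In WT it had 563, 566 and 440 CPM with CCl4, against 735, 1069, 1158 and 1239 CPM with mineral oil. No library overlapped (−0.96 ± 0.19, adjusted p = 0.0229 in ΔEGFR; −1.01 ± 0.21, adjusted p = 0.0115 in WT). Blvra, biliverdin reductase of heme breakdown, was 0.86 ± 0.20 higher on the log2 scale in ΔEGFR (adjusted p = 0.0385) and 1.23 ± 0.22 in WT (adjusted p = 0.00638). Cytochrome b5 (Cyb5a, −0.84 ± 0.22, adjusted p = 0.0257) and ferrochelatase (Fech, −0.75 ± 0.20, adjusted p = 0.0317), which inserts the iron of heme, fell in WT, and were called in 10 and 9 of the 15 fits with 1 library left out. In those fits Blvra was called in 6 in ΔEGFR and in all 15 in WT, and Pgrmc1 in 10 in ΔEGFR and in 14 in WT. P450 reductase itself (Por) did not pass the test, with 0.10 ± 0.38 in ΔEGFR (adjusted p = 0.889) and −1.06 ± 0.42 in WT (adjusted p = 0.114).

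Of 25 regulators of P450 genes, 1 fell in ΔEGFR, and in WT 1 rose and 8 fell (median −0.45 in ΔEGFR and −0.58 in WT). The 1 called in ΔEGFR is 4.0% of the list, near the 4.15% of all genes tested, and the 9 called in WT are 36.0%, against 12.5% of all genes. The one that fell in both was the growth hormone receptor Ghr, which had 116, 154, 205 and 199 CPM in ΔEGFR CCl4, against 383, 461, 269 and 705 CPM in ΔEGFR mineral oil. It had 178, 182 and 143 CPM in WT CCl4, against 417, 548, 663 and 418 CPM in WT mineral oil. Neither pair overlapped (−1.43 ± 0.28, adjusted p = 0.0229 in ΔEGFR; −1.61 ± 0.31, adjusted p = 0.00905 in WT). In WT the nuclear receptors Nr1i3 or CAR (−1.41), Ppara (−1.25), Nr1h4 or FXR (−1.11) and Hnf4a (−0.98) also fell, at adjusted p = 0.0279, 0.0479, 0.0374 and 0.0403. So did the corepressor Ncor1 (−0.58), the growth hormone effector Stat5b (−0.50) and the coactivator Ncoa1 (−0.37). Several of these WT calls rested on single libraries. Of the 15 fits that left out 1 library each, Ppara was called in 3, Ncoa1 in 5, Hnf4a and Nr1h4 in 6, Stat5b in 7, Nr1i3 in 10 and Ncor1 in 13, and the WT libraries of Ppara and Hnf4a overlapped between treatments. Ghr was called in all 15 of these fits in WT and in 10 in ΔEGFR. Stat5b and Ncoa1 changed sign when the libraries were compared in TPM. Ctnnb1, β-catenin, rose in WT (0.93 ± 0.20, adjusted p = 0.0135), and PXR (Nr1i2) did not pass the test in either genotype (−0.56 ± 0.26, adjusted p = 0.205 in ΔEGFR; −0.88 ± 0.29, adjusted p = 0.064 in WT). The macrophage, stellate and other cell markers given above moved in the same comparisons, and their part in any of these results was not tested.

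**Figure D4:**
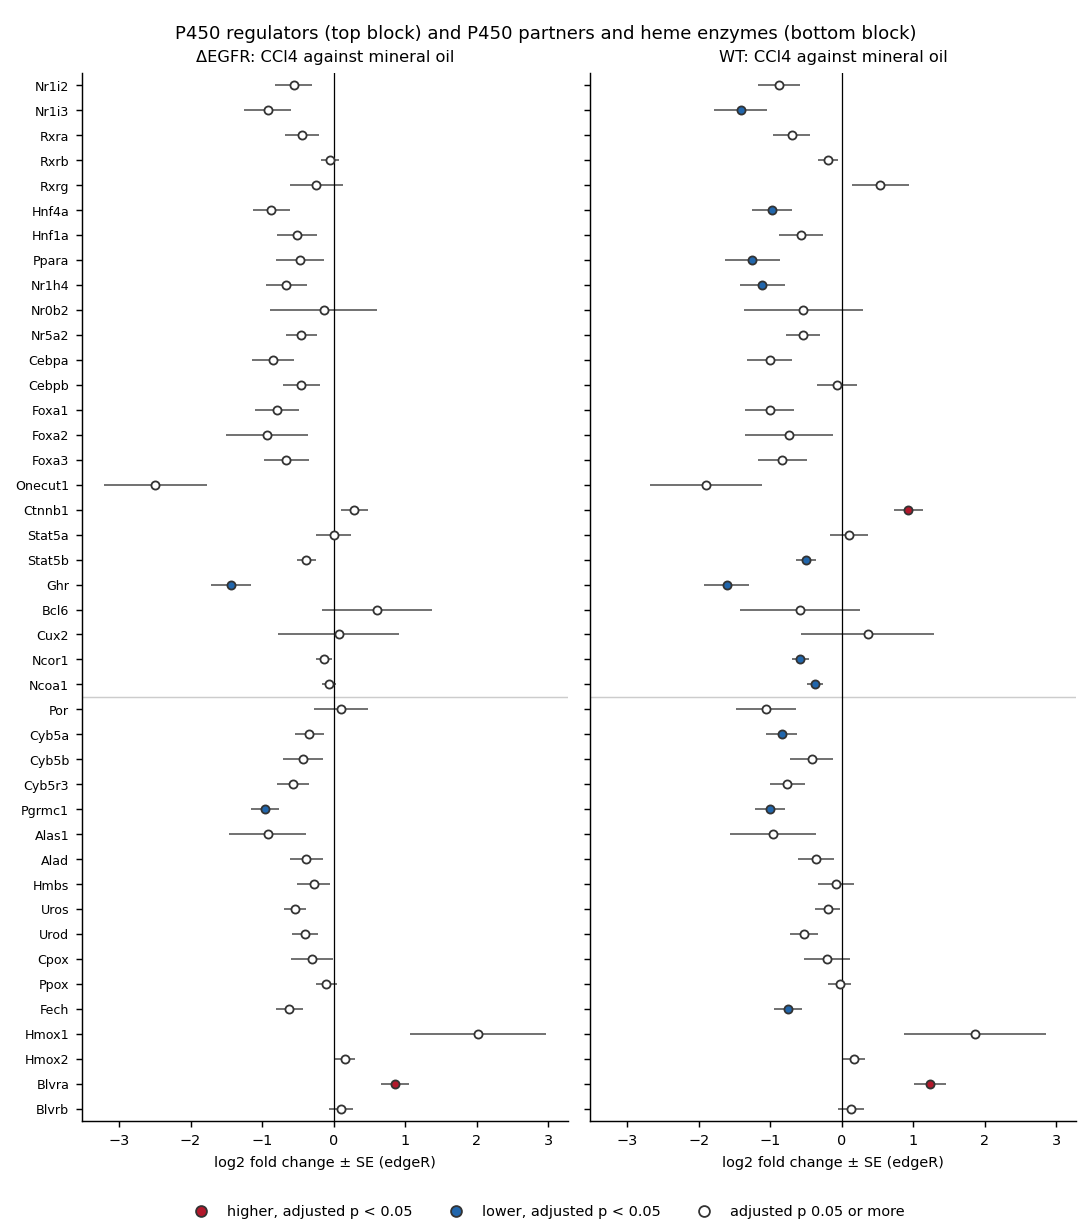
Log2 fold change ± SE (edgeR), CCl4 against mineral oil, in ΔEGFR (left) and WT (right) for 25 regulators of P450 genes (upper block) and 17 partner and heme genes (lower block). Blue points fell and red points rose at an adjusted p under 0.05; Ghr and Pgrmc1 are blue and Blvra is red in both genotypes.

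The design also sets the transgene against WT under each treatment, and no member passed that test. Of the 40 members, 0 were called between ΔEGFR and WT in CCl4 or in mineral oil, and 0 for the interaction of genotype and treatment, where 0% of all genes tested were called in each of the 3 (edgeR). Over all genes an unadjusted p under 0.05 was reached by 411, 1197 and 568 genes in CCl4, in mineral oil and for the interaction. Among the members it was reached by 2, 1 and 0. DESeq2 called 2, 0 and 2 genes of the whole table in the 3 tests and no member, and limma on TPM called no member either. In CCl4 the 2 members were Cyp2d9, with a log2 fold change of 0.65 ± 0.27 (adjusted p = 1.0), and Cyp2f2, with −0.96 ± 0.43 (adjusted p = 1.0). In mineral oil it was Cyp3a44, with 2.57 ± 1.12 (adjusted p = 0.713).

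For no member did the libraries of the genotypes separate fully in CCl4 (2.68% of all genes were above and 2.38% below in ΔEGFR) or in mineral oil (1.44% above and 1.29% below). In CCl4 27 of the 40 had a positive log2 fold change (median 0.44), and in mineral oil 13 did (median −0.10). With depth class as a covariate 35 were positive in CCl4 (median 0.59) and 25 in mineral oil, where the median turned to 0.23. In mineral oil, WT replicates 2, 3 and 4 and no ΔEGFR library were under 80 M counts. This fit therefore cannot fully separate depth from genotype. The interaction was positive for 32 of the 40 (median 0.33), and for 25 with that covariate (median 0.15). Its lowest p among the 40 was that of Cyp2d9 (0.71 ± 0.37, adjusted p = 1.0). These members are related genes measured in the same libraries, so these shares are descriptions.

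**Figure D5:**
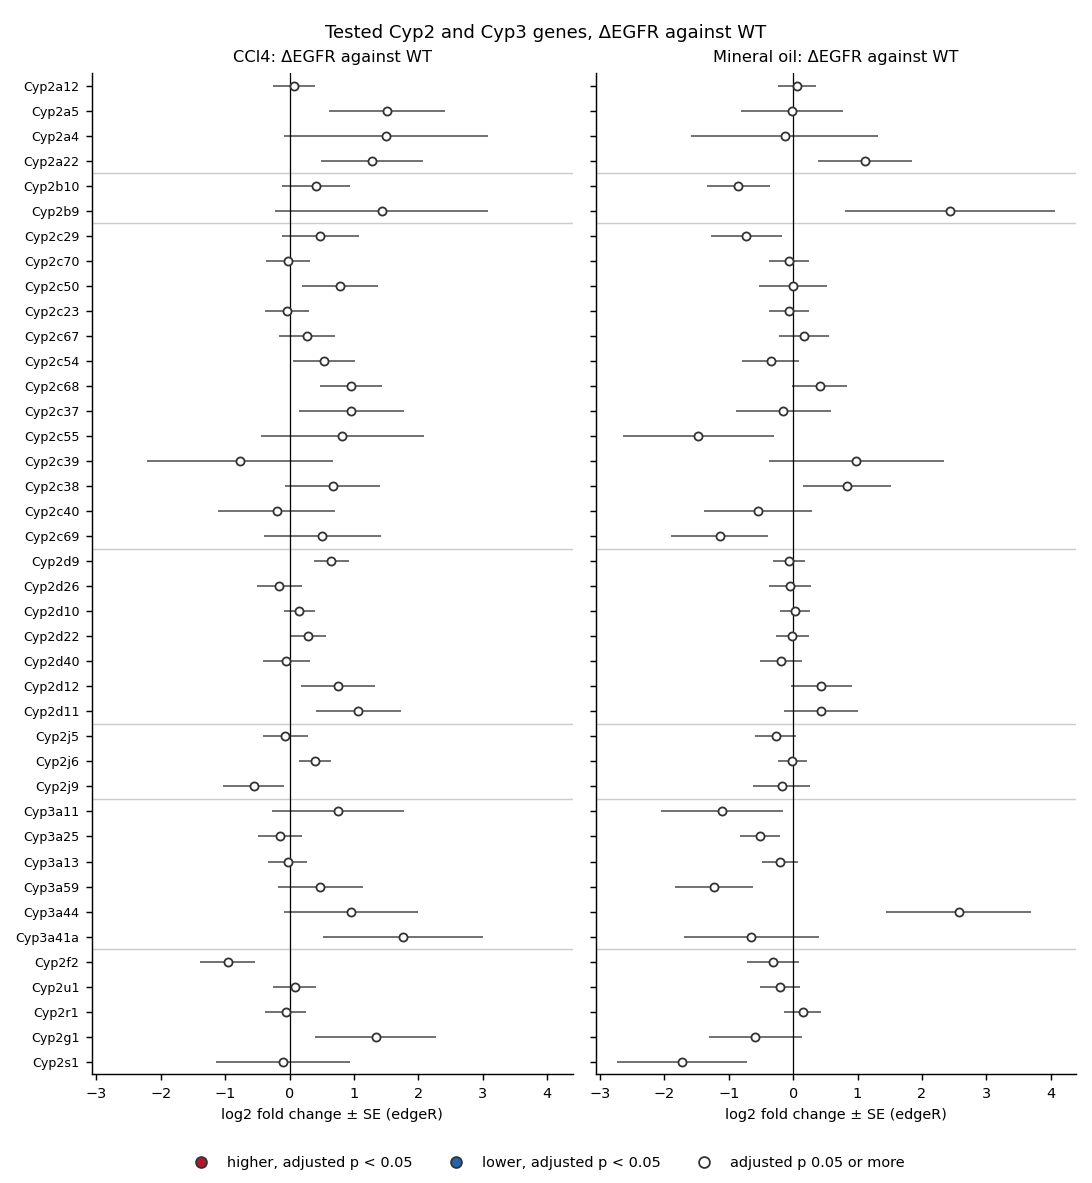
Log2 fold change ± SE (edgeR) of the 40 tested members, ΔEGFR against WT, in CCl4 (left) and in mineral oil (right), with grey lines between subfamilies. All points are open because 0 members passed at an adjusted p under 0.05. In CCl4 27 of the 40 lie right of 0 and in mineral oil 13, counts that become 35 and 25 with depth class as a covariate. Most libraries under 80 M counts are WT, so depth class and genotype cannot be fully separated.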

How the data were processed

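Poly(A) RNA of primary hepatocytes was sequenced from stranded libraries, per the labels' protocols. Per the submitters' processing notes, STAR 2.7.8a, RSEM 1.3.0 and the build GRCm39 were used; the authors deposited RSEM expected counts and TPM per gene for each library, with the annotation release and the strand setting not given in the sources used here. RSEM splits reads shared by copies by estimation.

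The expected counts were rounded to whole numbers. A gene was kept if it reached the CPM that equals 10 counts at the median library size in enough libraries, and 15 counts in all. Enough meant as many libraries, of any group, as the smallest group has. The 17975 genes kept were fitted over the 15 libraries with edgeR 4.0.16 (R 4.3.3, TMM factors, robust quasi-likelihood test, 4 groups, no covariate, biological coefficient of variation 50.9%). Their p-values were adjusted by Benjamini-Hochberg over all of them, with a threshold of 0.05. CPM are library-scaled counts with TMM factors of 1.03 to 1.34 in the CCl4 libraries and 0.745 to 1.03 in the mineral oil libraries. A larger factor lowers the CPM of its library. The SE is the log2 fold change divided by the square root of its F statistic. Counts come from reads without molecular identifiers. The alternatives were other scalings, filters, a depth covariate, DESeq2 1.42.0, limma 3.58.1 on log2(TPM + 1) and log2(TPM + 0.1), and each library left out. The fits were also run on simulated counts in which few genes changed, which does not check the scaling where many genes shift with CCl4.

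Symbols came from an annotation of another mouse build and named 52029 of 56953 IDs (91.4%). Promoters are from RefSeq GRCm38.p6, and coding identities from transcripts read with Biopython 1.88; other steps used Python 3.11.15, numpy 2.4.6, pandas 2.3.3 and matplotlib 3.10.9. Library values are given for the up to 3 members of each subfamily with the highest mean TPM and, per comparison, for the up to 6 called members in each direction with the largest log2 fold change. Cyp2e1 was left out by the choice of members. The members and gene lists were chosen with earlier results of these data known; 1 listed regulator is not reported here.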

Additional observations from a re-analysis of the deposited data

Results flagged for a closer look

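In groups of 4 libraries, a library was picked out where its gap to the nearest other one was larger, relative to the range of its group, than Dixon's criterion for 4 values allows; the figure in brackets is that ratio. This met 22 of 104 groups, where chance gives about 1 in 20, or 5.2; the groups share libraries and the genes are related, so the flags are not independent.

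WT mineral oil replicate 4 was the high library for Cyp3a11 (0.962), the summed 3a subfamily (0.958), Cyp2a4 (0.942), Cyp2b9 (0.939) and Cyp2a22 (0.889). ΔEGFR CCl4 replicate 4 was the high library for Cyp3a44 (0.946), Cyp2c29 (0.924), Cyp2c50 (0.913), Cyp2c54 (0.898), Cyp2c37 (0.883) and the summed 2c subfamily (0.884). ΔEGFR mineral oil replicate 4 was high for Cyp2b9 (0.912), Cyp2c37 (0.887) and Cyp2j5 (0.841).

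Singly, ΔEGFR mineral oil replicate 2 was high for Cyp2a22 (0.943) and Cyp2a4 (0.861), and replicate 3 of that group was low for Cyp2a5 (0.898) and the only one with Cyp2b13 reads (1.0). In ΔEGFR CCl4, replicate 1 was high for Cyp2a4 (0.845), replicate 2 was low for Cyp2b10 (0.899) and replicate 3 was high for Cyp2g1 (0.844). In WT mineral oil, replicate 3 was high for Cyp2c29 (0.925).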

How the results depend on the processing

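No paired analysis was possible because the labels carry no replicate numbers that link libraries of different groups. The calls rest on 3 or 4 libraries a group, and scarce members such as Cyp2g1, Cyp2d12 and Cyp3a44 on few counts.

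In WT, 2 members rose and 16 fell. With only the groups compared these counts were 0 and 6, where 191 of 16007 genes rose and 342 fell. With libraries under 80 M counts they were 0 and 0, as over all genes. With limma on log2(TPM + 1) 1 member rose, where 2874 of 17975 genes did. With 1 library left out 0 to 3 members rose and 5 to 19 fell, where 316 to 2583 of all genes rose and 259 to 2528 fell. In ΔEGFR, 1 rose and 13 fell. There 8 fell without scaling factors, where 183 of 17975 genes did. Over 80 M counts 0 rose and 2 fell, where 71 of 17248 genes rose and 50 fell. With DESeq2 3 rose, where 1320 of 17975 genes did. With limma on either pseudocount 4 rose and 7 fell. Over all genes 2129 rose and 142 fell on log2(TPM + 1), and 2133 rose and 152 fell on log2(TPM + 0.1). With 1 library left out 0 to 3 members rose and 1 to 16 fell, where 34 to 992 of all genes rose and 41 to 1153 fell. The genotype comparisons and the interaction called 0 members in each alternative run. The cause was not tested for any of these shifts.

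Some log2 fold changes that did not pass the test changed sign. Cyp2b10 in WT (−0.04) was 0.44 without scaling factors, 0.08 without a filter, 0.13 with depth as covariate, 0.61 and 0.63 with limma, and −0.32 to 0.27 with 1 library left out. Cyp2c29 in ΔEGFR (−0.03) was 0.00 with RLE factors and with DESeq2, 0.02 with upper-quartile factors, 0.37 without factors, 0.04 without a filter, 0.14 over 80 M counts, 0.31 with limma on either pseudocount and −0.82 to 0.37 with 1 left out. Cyp3a11 in ΔEGFR (−0.28) was 0.05 without factors, 0.14 with limma and −0.88 to 0.17 with 1 left out, and in WT (−2.13) it was −2.66 to 0.12. Cyp2r1 in WT (−0.50) was 0.03 with limma, Cyp2c68 in ΔEGFR (0.05) was −0.14 to 0.40 and Por in ΔEGFR (0.10) was −0.14 to 0.34 with 1 left out. Of those that passed, Ncoa1 in WT (−0.37) was 0.07 without factors and 0.18 and 0.20 with limma, and Stat5b in WT (−0.50) was 0.03 with limma.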

Other observations

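Some 2c members varied more between libraries of a group than between groups. Cyp2c39, a female-biased member, had 1.61, 0.97, 24.9 and 1.75 TPM in ΔEGFR CCl4, against 15.5, 48.3, 17.4 and 0.57 TPM in ΔEGFR mineral oil. It had 0.30, 24.6 and 14.9 TPM in WT CCl4, against 10.9, 0.70, 14.1 and 16.3 TPM in WT mineral oil. In each group at least 1 library was below 2 TPM and at least 1 above 10 TPM. Its relative Cyp2c40, also female-biased, had 0.36, 0.23, 2.43 and 0.35 TPM in ΔEGFR CCl4, against 0.91, 1.96, 1.43 and 0.57 TPM in ΔEGFR mineral oil. In WT CCl4 it had 0.07, 1.64 and 1.42 TPM, against 1.59, 0.55, 3.18 and 1.71 TPM in WT mineral oil, so that the libraries low in Cyp2c39 were also the low ones of their group for Cyp2c40.

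Cyp2c55, which CAR and PXR activators induce, had 8.55, 13.5, 15.4 and 68.5 TPM in ΔEGFR CCl4, against 1.07, 5.98, 2.48 and 7.41 TPM in ΔEGFR mineral oil. It had 3.76, 39.5 and 4.11 TPM in WT CCl4, against 3.40, 2.23, 1.34 and 43.6 TPM in WT mineral oil. A single library stood above the rest in WT CCl4, in WT mineral oil and in ΔEGFR CCl4, and in each of these groups the same library was also the highest for Cyp3a11.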
